A study of Mus musculus with 6 samples.

Results

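The CUT homeobox genes described here are Onecut1, Onecut2, Onecut3, Cux1, Cux2 and Satb1, 6 of the 21887 mouse protein-coding genes in the RefSeq table used. They were chosen by family and, within the family, with the peaks around them already measured in the same lists. Their peaks are therefore given as a description, with no test. Peaks were taken from the span of each gene in GRCm38 and from 100 kb on either side, and a gene span with these flanks is called its window. The 6 windows held 99 peaks, 40 in replicate 1, 19 in replicate 2 and 40 in replicate 3, which are 0.127%, 0.148% and 0.161% of their lists of 31600, 12856 and 24822 peaks.

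The peaks came from ChIP-Seq of mouse embryonic fibroblasts (MEFs), primary cells of C57BL/6 embryos. FLAG-tagged Onecut3 was induced from a retroviral Tet-One system by 100 ng/mL doxycycline (Onecut3-OE), and DNA was recovered with the anti-FLAG M2 antibody in 3 Onecut3-OE replicates. All 3 share the genotype of the cells, the transgene and the drug, and the sources used here do not say whether they came from separate cultures, so the spread between them may be technical. The series also has 1 FLAG library of cells without doxycycline, 1 IgG and 1 input library, which were not analysed here although the names of the peaks show the input as the control they were called against.

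CUT homeobox proteins bind DNA through a homeodomain together with 1 or more CUT domains. The Onecut proteins have a single CUT domain. Onecut1, also called HNF6, is known from liver and pancreas development, and Onecut2 and Onecut3 from endoderm and the nervous system. Cux1 is found in many tissues and is linked to cell proliferation, and Cux2 is known as a marker of upper-layer neurons of the cortex. Satb1 is a chromatin organizer best known from T cells.

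Each peak carries the fold given by the authors, which is the ratio of ChIP pileup to expected background at the summit with 1 added to both, and a q value for that height. Overlapping peaks, by 1 bp or more, were joined across the lists, and a joined region is called shared where all 3 replicates contributed a peak. Folds depend on the depth of a library, which the lists do not give, so they are compared between regions within a replicate and otherwise set side by side. Signal that the FLAG antibody gives without Onecut3 was not subtracted.

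Each of the 6 CUT gene windows held a FLAG peak, but the share of all genes with any peak in such a window was not counted. Even the sparsest of these windows, that of Onecut2, stood at percentile 19.4 of all genes by regions per 100 kb. Regions shared by all replicates were found at 3 of the 6 genes only, 7 at Cux1, 3 at Cux2 and 2 at Onecut3. Onecut1, Onecut2 and Satb1 had none. The peaks in the 6 windows made 66 regions, of which 12 were shared, 9 had peaks in 2 replicates and 45 in a single replicate. Shared regions were 18.2% of the regions in these windows and 10.1% of all 50844 regions. Of the window peaks, 30.0% of replicate 1, 63.2% of replicate 2 and 30.0% of replicate 3 lay in shared regions, beside 16.3%, 40.0% and 20.7% of all peaks in these lists. Replicate 2, the shortest list, had the highest share in both.

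The 3 genes with a shared region stand beside 40.6% of all protein-coding genes, so a shared region somewhere in the window is common. At least 2 shared regions were found at these same 3 CUT genes and at 14.9% of all genes. At least 7 were found at Cux1 and at 0.0822% of all genes, 18 in number. A shared region inside the gene was found at 2 CUT genes, Cux1 and Cux2, beside 9.53% of all genes. These 2 are the longest of the members, at 319.5 kb and 192.5 kb, and gene length was not matched. A shared region within 3 kb of either end of the gene was found at Cux1 alone, beside 5.32% of all genes. When peaks with a fold of at least 5 were merged on their own, Onecut3, Cux1 and Cux2 each kept 1 shared region, beside 7.02% of all genes with any.

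**Figure D1:**
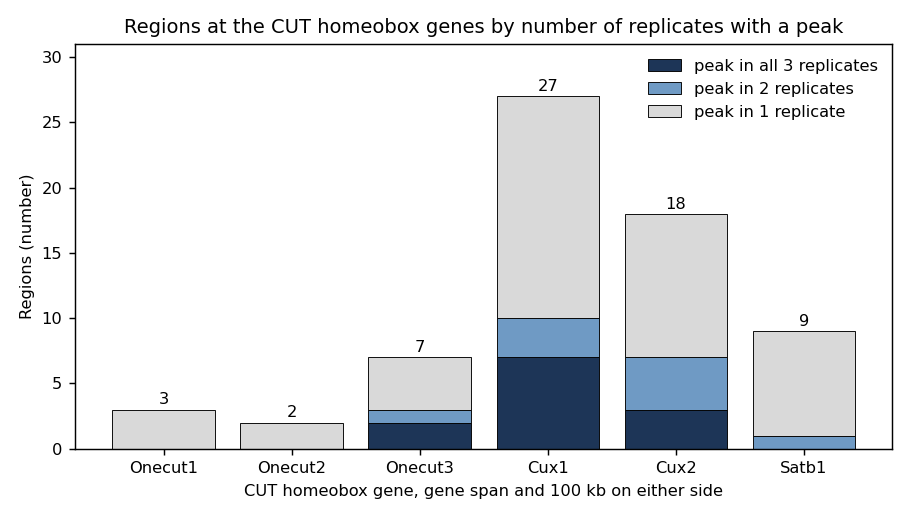
Number of merged regions in the window of each CUT homeobox gene (gene span and 100 kb on either side), split by whether 1, 2 or all 3 Onecut3-OE FLAG replicates had a peak there. Cux1 and Cux2 hold 10 of the 12 shared regions, and the bars of Onecut1 and Onecut2 consist of regions with a peak in 1 replicate only.

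The shared region with the highest mean fold lay below Onecut3 on chromosome 10, over the first bases of the long noncoding RNA Gm40716. Its sequence is shown because the RefSeq promoter window of Gm40716, 250 bases before to 50 after the start site, lay under the region over all 300 bases. It occupies chr10:80475331-80475630 in GRCm38.p6 on the minus strand, with capitals marking a match to ATCGAT, 1 of the cores searched as an ONECUT motif. RefSeq is the source of the sequence.
Gm40716: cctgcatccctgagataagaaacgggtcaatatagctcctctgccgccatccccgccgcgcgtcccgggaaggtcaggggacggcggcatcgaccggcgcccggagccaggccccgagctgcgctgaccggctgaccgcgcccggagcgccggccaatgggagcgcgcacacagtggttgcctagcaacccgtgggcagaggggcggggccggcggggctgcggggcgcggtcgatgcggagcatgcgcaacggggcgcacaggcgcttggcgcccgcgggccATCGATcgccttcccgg
The match began at position 284, counted from 1 at the 5′ end, which is 33 bases after the start site. The letters searched were ATTGAT and ATCGAT on both strands, so that ATCAAT counts as ATTGAT, and ATCGAT reads the same on both. ATCGAT was present in 0.925% of 32851 promoter windows of this length and either core in 8.40%. Of the 432 windows that a shared region reached, 38.4% held either core, and the share of these with ATCGAT was not counted. The summits of replicates 1, 2 and 3 lay 23, 102 and 49 bp from the match. The window is rich in G and C, at 74.0% beside a median of 52.7% over all promoter windows. Base composition was not matched in these shares, and its part in the match was not tested.

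Onecut3, the gene that was induced, had no peak of any replicate inside its span at chr10:80494906-80517266. The annotation used gives the span without exons, and with no peak in 22.4 kb of gene there was none in an exon. No peak lay within 3 kb of either end. The nearest peak was 13.0 kb away in replicate 1, 19.2 kb in replicate 2 and 19.3 kb in replicate 3. DNA of an integrated Onecut3 cDNA would map to the exons if its sequence is that of the mouse gene, and the species of the cDNA is not given in the sources used here. The input library came from cells with the same transgene and served as the control. Its reads over the exons were not analysed here.

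The region over Gm40716, at chr10:80475194-80475727, began 19.2 kb below the span of Onecut3. Its fold was 8.43, 8.35 and 8.59 in replicates 1, 2 and 3, or 8.46 ± 0.121 (SD, n = 3). These folds stood at percentiles 99.8, 99.5 and 99.8 of their lists, and by mean rank of fold the region was number 26 of 5114 shared regions. Its ChIP pileup was 29 fragments over a background of 2.56 in replicate 1 and 28 over 2.38 in replicate 3. The SD of its folds was the lowest among the 12 shared regions of the family, but such an SD may also hold differences in depth between the libraries. No protein-coding gene was nearer to this region than Onecut3.

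The second shared region in the Onecut3 window lay 61.6 kb on the other side, at chr10:80578891-80579192. It overlapped the noncoding RNA Gm26710 and was 1.60 kb from Klf16, a gene for a zinc finger transcription factor and far nearer to it than Onecut3. Its fold was 4.56, 3.38 and 4.14 in replicates 1, 2 and 3, about the middle of the shared regions, with a mean rank of 2659. A further region at chr10:80448498-80448789 lay 46.1 kb below Onecut3 and nearer to Tcf3, at 14.5 kb. It had a fold of 5.29 in replicate 2 and 5.41 in replicate 3 and no peak in replicate 1. Both of its folds were above those of the Klf16 region. The other 4 regions of the window had a peak in 1 replicate, with folds of 2.42 to 3.09, and 1 of them had a q of at most 0.05. The Onecut3 window overlaps 10 protein-coding genes, Onecut3 included, so distance alone does not tie these regions to Onecut3.

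Onecut1, on chromosome 9, had a single peak inside its span of chr9:74861921-74889648. It was called in replicate 3 alone at chr9:74862115-74862335, with its summit 302 bp downstream of the 5′ end, a fold of 3.70, a q of 0.0115 and a pileup of 12 fragments. The region began 145 bp beyond the RefSeq promoter window, which held neither core. Replicate 1 had the other 2 peaks of the window, 8.98 kb upstream of the gene with a fold of 3.76 and 29.2 kb beyond its 3′ end with a fold of 3.63. Replicate 2 had none, and its nearest peak was 147.4 kb away. All 3 peaks had a q of at most 0.05, but no position was found in more than 1 replicate. The nearest shared region was 451.5 kb from the gene.

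Onecut2 had 2 peaks in its window, both on the higher-coordinate side and neither with a q of at most 0.05. The first, 31.1 kb from the gene, was called in replicate 1 with a fold of 3.33, and the second, 46.3 kb away, in replicate 3 with a fold of 2.87. Both were nearer to Fech, the gene of ferrochelatase, than to Onecut2. Replicate 2 had no peak within 452.0 kb. With 0.774 regions per 100 kb the window stood at percentile 19.4 of all protein-coding genes, and the Onecut1 window, with 1.32, at percentile 32.1. The peaks at Onecut1 and Onecut2 were therefore no denser than around most genes.

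**Figure D2:**
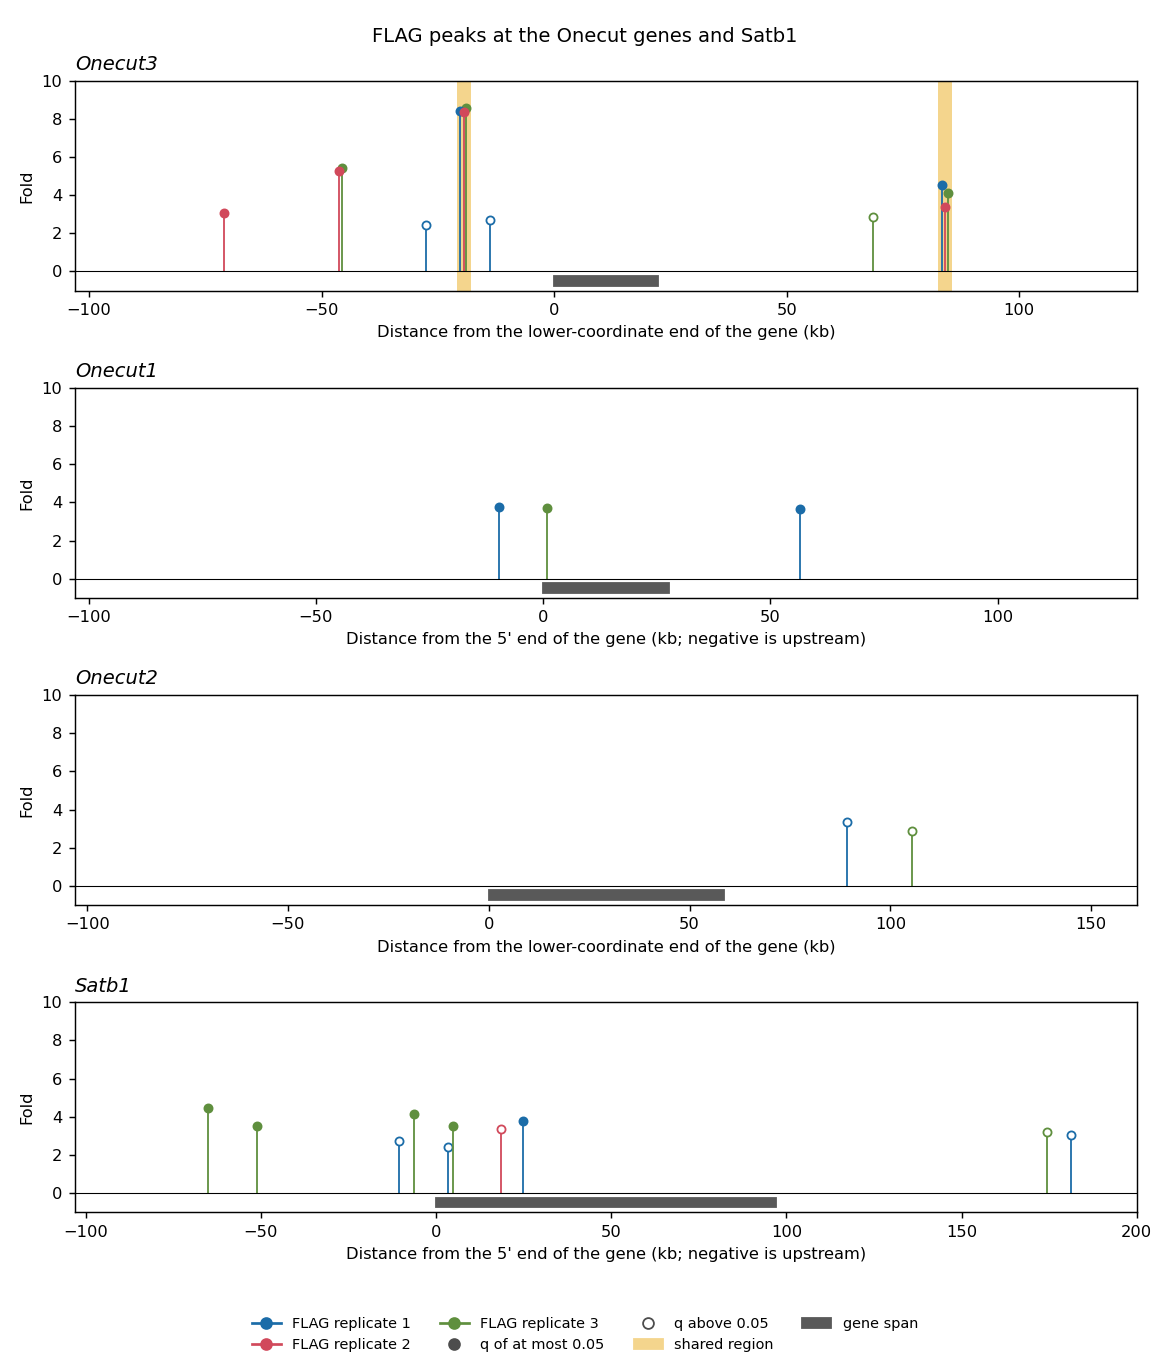
Each stem is 1 peak, placed at its summit (kb from the 5′ end, or from the lower-coordinate end where the strand is not given) and drawn to its fold, with replicates 1, 2 and 3 set 0.6 kb apart so that they can be told apart. Filled circles have a q of at most 0.05, shaded bands mark shared regions at more than their true width, and grey bars are the gene spans; of these 4 genes only Onecut3 has shared regions, both outside its span, the higher at folds of 8.35 to 8.59.

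Cux1, on the minus strand of chromosome 5, held more regions than the other members, 27 in a window of 519.5 kb around chr5:136248135-136567590. Of these, 7 were shared, 3 had peaks in 2 replicates and 17 in a single replicate. The peaks numbered 18, 9 and 17 in replicates 1, 2 and 3. Cux1 is a long gene, 319.5 kb, and a longer window collects more regions. Per 100 kb the window had 1.35 shared regions, percentile 96.9 of all protein-coding genes, where the plain count stood at percentile 99.9.

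Of the 7 shared regions of Cux1, 6 lay within 60 kb of its 5′ end, on either side. This limit was not among the planned settings. Regions with peaks in fewer replicates lay in the same stretch, so a gathering of shared regions in particular was not tested. The closest shared region, at chr5:136566771-136567357, had its middle 526 bp inside the gene. Its fold was 7.06, 5.15 and 5.67 in replicates 1, 2 and 3 (5.96 ± 0.990, SD, n = 3), the highest mean at Cux1 and number 384 of 5114. Its summits were up to 275 bp apart. The next, at chr5:136564726-136565179 and 2.64 kb inside, had 6.78, 4.67 and 3.87. The RefSeq promoter window of Cux1, at chr5:136565932-136566231, belongs to a start site between these 2 regions, did not touch either, being 540 bp from the nearer, and held neither core.

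Further into the gene, a shared region at chr5:136556818-136557232, 10.6 kb from the 5′ end, reached 4.74 in replicate 1, 4.59 in replicate 2 and 4.23 in replicate 3. At chr5:136513703-136514022, 53.7 kb inside, the folds were 6.17, 3.87 and 5.98, at percentiles 98.5, 51.0 and 97.7 of their lists. The last shared region inside Cux1 lay far from the others, 189.0 kb from the 5′ end at chr5:136378416-136378716, with 4.44, 5.85 and 4.05.

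Upstream of Cux1, where the table lists no other protein-coding gene at the peaks, there were 2 shared regions. The region 19.7 kb from the gene, at chr5:136587308-136587824, had folds of 4.84 in replicate 1, 4.18 in replicate 2 and 4.14 in replicate 3. The region 55.1 kb away, at chr5:136622727-136623450, had 3.03, 6.76 and 5.38. Its peak in replicate 1 had a q of 0.197 and a summit up to 454 bp from the others, and was joined to them through the wide peak of replicate 3. This region is thus shared by merging more than by a common summit.

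Of the 3 Cux1 regions with peaks in 2 replicates, all lay inside the gene. The region at chr5:136388816-136389019 covered the start of Gm16599, a noncoding RNA within Cux1, with folds of 4.54 in replicate 1 and 3.82 in replicate 3. The region at chr5:136533464-136533788 had 4.11 in replicate 2 and 2.30 in replicate 3, and that at chr5:136372710-136373124 had 3.22 in replicate 1 and 2.30 in replicate 3. Their replicate 3 peaks of 2.30 had a q of 0.943. The 17 regions of a single replicate, 9 in replicate 1, 1 in replicate 2 and 7 in replicate 3, had folds of 2.16 to 4.74, and 4 of them a q of at most 0.05. Among them, replicate 1 had a peak 0.947 kb upstream of the gene with a fold of 3.10.

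Cux2 lies on the same chromosome and strand, at chr5:121857962-122050415. Its window had 18 regions, of which 3 were shared, 4 had peaks in 2 replicates and 11 in a single replicate, with 11, 5 and 12 peaks in replicates 1, 2 and 3. The shared regions did not lie at the 5′ end. The highest, at chr5:121948226-121948802, was 101.9 kb inside the gene, with folds of 6.26, 6.30 and 8.61 in replicates 1, 2 and 3 (7.06 ± 1.34, SD, n = 3) and number 145 of 5114. Its summits lay within 50 bp, and its pileups were 28 fragments in replicate 1 and 31 in replicate 3.

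The other shared region inside Cux2, at chr5:121924674-121925201 and 125.5 kb from the 5′ end, was among the weakest shared regions of the genome at number 4368. Its folds were 3.03, 4.18 and 2.87 in replicates 1, 2 and 3, and a q of at most 0.05 was reached in replicate 2 only. The third, at chr5:121783544-121783914, lay 74.0 kb beyond the 3′ end, inside Atxn2, the gene of the RNA-binding protein ataxin 2. Its folds were 7.12, 6.04 and 2.99, at percentiles 99.5, 95.2 and 35.4 of their lists, and the peak of replicate 3 had a q of 0.0968, although the 3 summits lay within 11 bp. Like the region near Klf16, it was nearer to a neighbour than to the CUT gene.

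At the 5′ end of Cux2 the peaks did not reach all replicates. The region at chr5:122050062-122050377 had a fold of 3.49 in replicate 1 and 3.99 in replicate 3, both with a q of at most 0.05, and no peak in replicate 2. It covered 40 bases of a RefSeq promoter window of Cux2 that held neither core. A second promoter window of Cux2, at chr5:122047776-122048075, held ATCGAT 72 bases before its start site and was 1987 bp from the nearest region of any replicate. Here the window with the core had no peak and the window with a peak lacked the core. With replicate 2 left out, 6 regions of the Cux2 window had a peak in both of the others. The other 3 regions with peaks in 2 replicates were inside the gene, with folds of 2.37 to 3.76. The 11 regions of a single replicate had folds of 2.16 to 4.14, and 5 of them, all in replicate 3, had a q of at most 0.05.

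**Figure D3:**
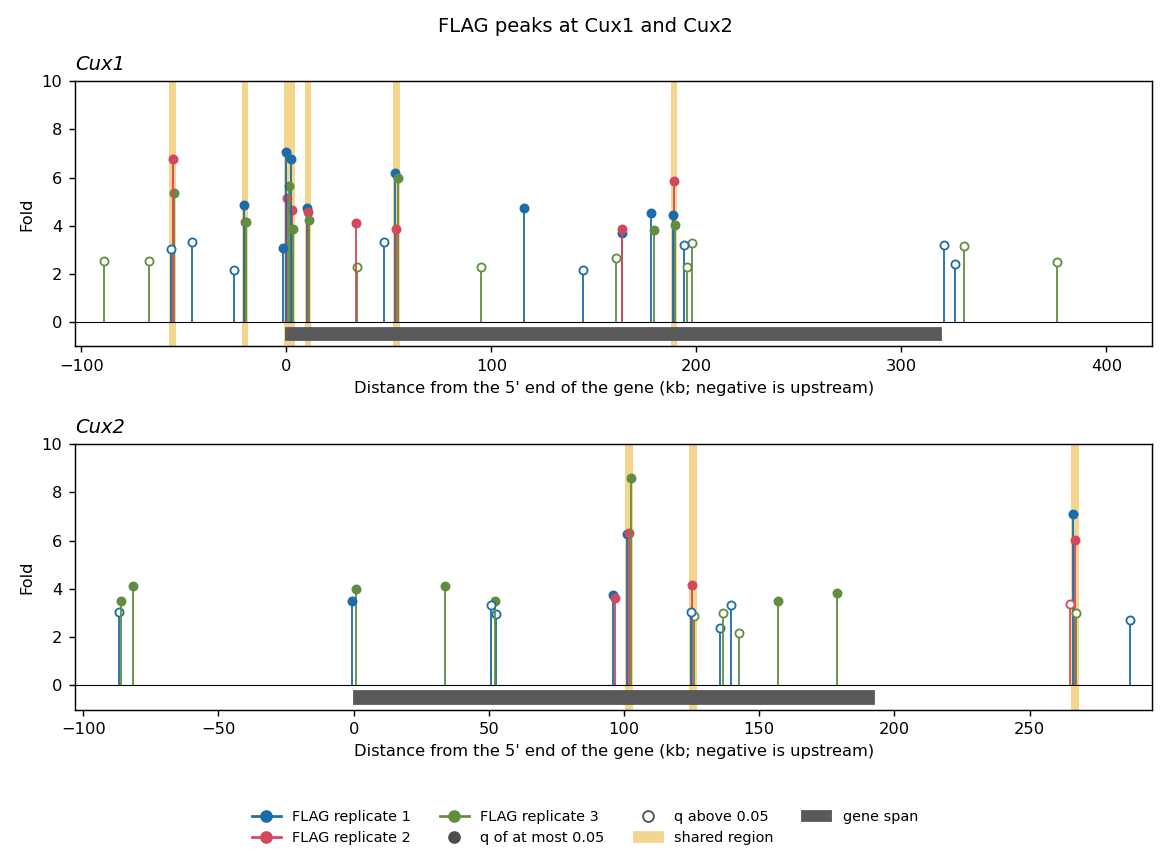
Peaks at Cux1 and Cux2, each stem at its summit in kb from the 5′ end of the gene and drawn to its fold, with replicates 1, 2 and 3 set 0.6 kb apart; filled circles have a q of at most 0.05, shaded bands mark shared regions at more than their true width and grey bars the gene spans. Of the 7 shared regions of Cux1, 6 lie within 60 kb of its 5′ end, where regions with peaks in fewer replicates lie too. The shared regions of Cux2 lie 101.9 kb and 125.5 kb inside the gene and 74.0 kb beyond it.

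Satb1, on the minus strand of chromosome 17 at chr17:51736187-51833290, had 9 regions in its window and none was shared. Peaks numbered 4, 1 and 5 in replicates 1, 2 and 3. A region inside the gene at chr17:51829064-51829336, 4.09 kb from the 5′ end, was found in 2 replicates, with a fold of 2.42 and a q of 1 in replicate 1 and 3.50 with a q of 0.043 in replicate 3. Replicate 2 had its single peak, of 3.35, inside the gene 18.4 kb from the 5′ end, and replicate 1 had a peak of 3.76 at 25.3 kb. The highest fold of the window was 4.46, in replicate 3 alone and 65.5 kb upstream. None of the 5 RefSeq promoter windows of Satb1 was touched by a peak, the closest region being 2226 bp away. Of them, 2 overlapping windows shared a single ATCAAT.

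The 100 kb limit left out a shared region at Satb1. It lay at chr17:51630124-51630476, 105.7 kb beyond the 3′ end, with folds of 3.03, 6.40 and 6.55 in replicates 1, 2 and 3, while the outermost region inside the limit was 84.8 kb away with a fold of 3.03 in replicate 1 alone. At the other members the first region outside the limit lay 116.8 kb to 145.3 kb away and none of these was shared. At these members the first shared region outside the limit was 164.8 kb away, at Onecut3, or farther. When replicate 2 was left out, Satb1 had 1 region with a peak in both of the others, the one 4.09 kb from its 5′ end.

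Any peak inside the gene was found at 4 members, Onecut1, Cux1, Cux2 and Satb1, beside 37.6% of all protein-coding genes, with gene length not matched. Of the 12 shared regions, 7 lay inside their CUT gene (58.3%), 5 in Cux1 and 2 in Cux2. The Cux1 span takes up 319.5 kb of a 519.5 kb window and the Cux2 span 192.5 kb of 392.5 kb. The share of all shared regions that lie inside a gene was not counted. The 12 had a median width of 485.5 bp, from 301 to 724, beside 393.5 bp over all shared regions. Their summits spanned a median of 66.5 bp and at 9 regions at most 100 bp, and this span was not computed over all shared regions. The median fold of the 12 was 5.51, 4.91 and 4.18 in replicates 1, 2 and 3, beside 3.94, 4.18 and 4.05 over all shared regions. The pileup behind them was modest, at 9 to 32 fragments in replicate 1 and 8 to 31 in replicate 3.

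A q of at most 0.05 was reached by 32 of the 36 peaks in the 12 shared regions, and at 9 regions by every replicate. Over all shared regions 57.0% reached it in every replicate. The exceptions were the outer upstream region of Cux1, the Atxn2 region and the weak region inside Cux2. Of the 45 regions with a peak in a single replicate 17 reached it, and of the 9 regions with peaks in 2 replicates 4 reached it in both, beside 27.2% and 34.6% of all such regions. Over whole lists it was reached by 33.6%, 71.0% and 47.7% of the peaks in replicates 1, 2 and 3. Single-replicate regions had folds of 2.16 to 4.74 in replicate 1, 3.09 to 3.89 in replicate 2 and 2.16 to 4.46 in replicate 3. These ranges overlap those of the shared regions, which began at 3.03, 3.38 and 2.87.

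**Figure D4:**
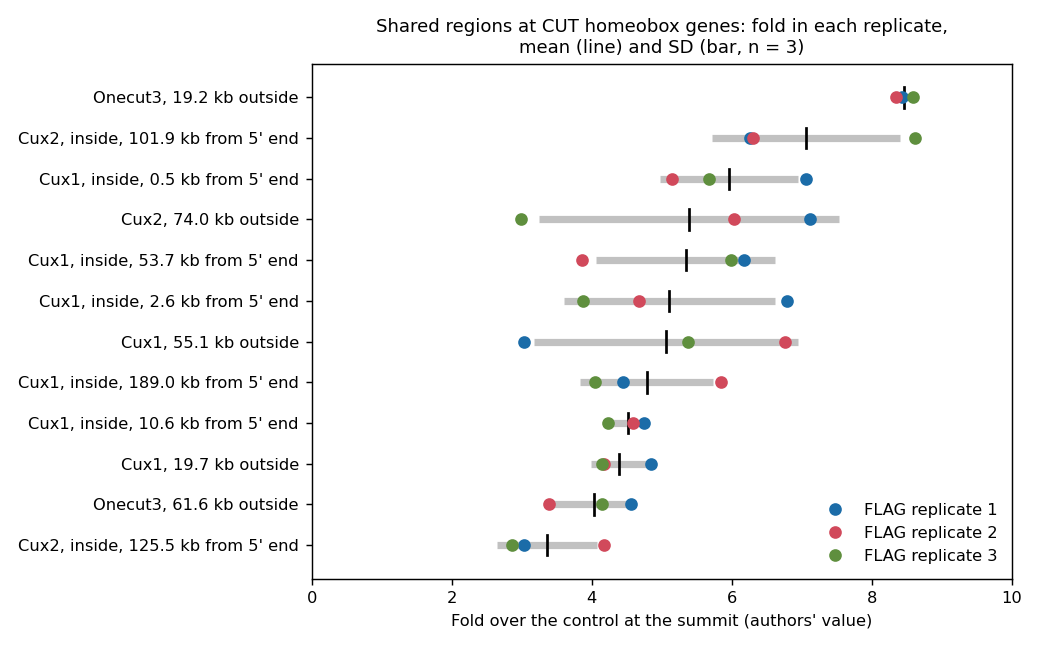
Fold at the summit, as given by the authors, in each Onecut3-OE FLAG replicate (points) for the 12 shared regions at CUT homeobox genes, with their mean (line) and SD (bar, n = 3), ordered by mean. The region below Onecut3 has the highest mean with replicates at 8.35 to 8.59, and the region of Cux2 inside Atxn2 spreads most, from 2.99 to 7.12. Folds depend on library depth, so these spreads may be partly technical.

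The windows differ in length, which bears on the counts. Per 100 kb, Onecut3 had 0.899 shared regions (percentile 90.9 of all protein-coding genes) and Cux2 had 0.764 (percentile 88.1), beside 1.35 at Cux1. By plain count Cux2 stood at percentile 96.3 and Onecut3 at 89.8. All regions together, shared or not, were also dense at Cux1 with 5.20 per 100 kb (percentile 95.6), and at Cux2 with 4.59 (percentile 92.7), whereas Satb1 had 3.03 (percentile 75.4).

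**Figure D5:**
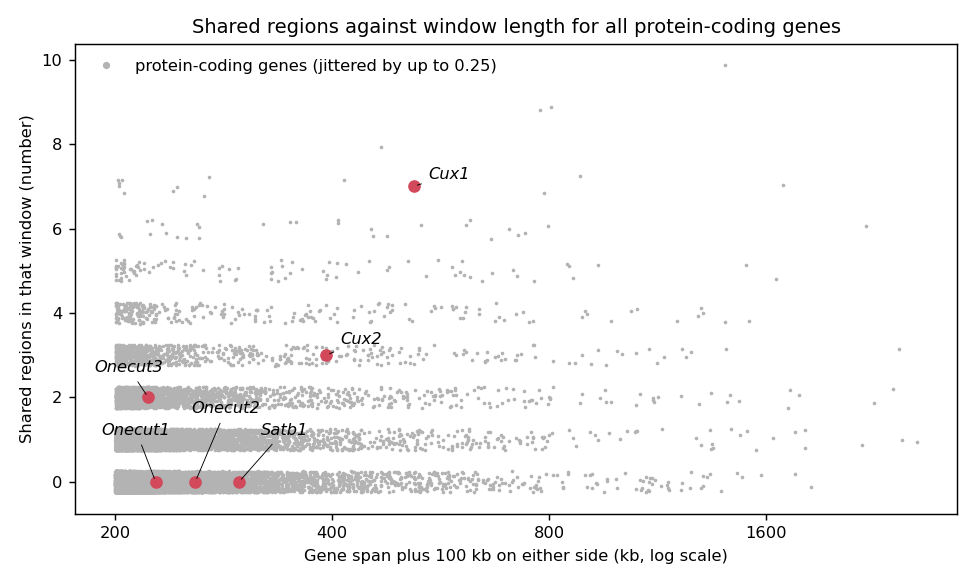
Shared regions in the window of each of 21887 protein-coding genes (grey, shifted up or down by at most 0.25 for display) against the length of the window in kb on a log scale, with the 6 CUT homeobox genes in red. Cux1 has 7 shared regions in 519.5 kb, a count reached by 18 genes, and Onecut1, Onecut2 and Satb1 lie on the line of genes with 0.

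For comparison, the POU-class genes were counted in the same way, since POU proteins also pair a homeodomain with a second DNA-binding domain. Of these 14 genes 7 had a shared region in their window (50.0%), beside 3 of the 6 CUT genes and 40.6% of all genes. The median number was 0.5 in the POU list, 1 in the CUT genes and 0 over all genes. Gene length was not matched in these counts. A shared region lay inside 1 of the 14, beside 9.53% of all genes. That 1 was Pou2f2, which encodes a B cell factor and had 4 shared regions in its window, 2 of them inside the gene. The highest, with folds of 5.37, 5.85 and 5.41 in replicates 1, 2 and 3, lay outside it at chr7:25076923-25077340. Pou1f1, Pou2f1, Pou3f1, Pou3f2, Pou4f2 and Pou5f1 had 1 each, all outside the gene and from 32.6 kb to 96.9 kb from it. No test of the difference between the lists was made.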

How the data were processed

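ChIP-Seq with anti-FLAG was analysed in the 3 Onecut3-OE FLAG replicates, grouped by the sample labels. Tools listed in the submitters' processing notes are MACS2 2.1.0, Bowtie2 2.2.6 and deepTools 3.3.2, with the build GRCm38. How reads were filtered is not given in the sources used here. Peaks appear to have been called per sample against the input, without pooling. Each deposited list holds, per peak, the authors' fold (the ratio of pileup to background with 1 added to both), the q-value and p-value as −log10 by the authors, and a deposited score derived from the p-value. They reach down to a p of about 0.01. The depth is unknown, so no counting interval was made. Pileup and background were solved from the authors' fold and p-value within 0.001 in −log10 p, for 100.0% of window peaks in replicates 1 and 3 but not in replicate 2, where the values appear to have been scaled.

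Peaks overlapping by at least 1 bp were merged, and merged regions were counted in the span of each of 21887 protein-coding genes (RefSeq, GRCm38.p6) and 100 kb on either side. The gene table holds no exons. Strand came from RefSeq promoter windows, which 4 of the 6 members had. Onecut2 and Onecut3 had none. No genome was given. No test was run, since 1 group had peak lists, and percentiles are ranks among all genes. Members and lists were chosen with earlier results of these data known. Named are the 6 members, all their shared regions, neighbours nearer to a shared region, and the genes of the POU list with a shared region. Fech and Tcf3 are named as neighbours nearer to regions that were not shared. Other regions were named after their values were seen. Part of the cells' genotype and 1 gene planned for the comparison list are not reported here. Alternatives were a −log10 q of at least 5, a fold of at least 5, a q of at most 0.05, an overlap of at least 50% of both peaks, summits within 100 bp, each replicate left out, and flanks of 50 kb, 10 kb or none. On simulated data all 60 genes with a planted region and all 500 pileups were recovered. Analyses ran in Python 3.11.15 with matplotlib 3.10.9, scipy 1.17.1, pandas 2.3.3 and numpy 2.4.6.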

Additional observations from a re-analysis of the deposited data

How the results depend on the processing

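The 12 shared regions at the CUT genes fell to 3 with a −log10 q of at least 5, to 3 with a fold of at least 5, and to 7 with flanks of 10 kb or with the gene span alone. Over the same settings in that order the genes with a shared region fell from 8895 to 1597, 1536, 3123 and 2086 of all protein-coding genes and from 7 to 2, 2, 1 and 1 of the POU list, which fell to 3 with a q of at most 0.05. Onecut3, Cux1 and Cux2 had a shared region under each threshold and overlap tried, and under flanks of 10 kb or none only Cux1 and Cux2 did. Cux1 had 6 shared regions at a q of at most 0.05, 5 at an overlap of 50% of both peaks and 4 with summits within 100 bp. With each replicate left out in turn, a region counted as shared where both remaining replicates had a peak, a looser rule than all 3. This gave 12 to 18 such regions at the CUT genes and 3 to 4 CUT genes with any (Satb1 was added without replicate 2). Of the CUT window regions, 25.5% to 31.1% were shared in this sense. Such a region was found at 7 to 9 genes of the POU list and at 10363 to 12388 of all genes. No paired analysis was possible because only the 3 FLAG replicates of 1 group had peak lists. Of the 55 alternative values of the main counts, 42 stayed within their limit. For counts the limit was 1.5 times the main value. For the percent of CUT window regions shared it was 19.1 points, the SD over replicates of another share, that of window peaks in shared regions. That limit is wider than the main percent of 18.2% itself, so staying within it says little about stability. The depth of the libraries is unknown, and pileups of 8 or 9 fragments behind the weakest shared peaks limit what a missing peak can show. Signal of the FLAG antibody without Onecut3 was not analysed here.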
